A study of Rattus norvegicus with 6 samples.

Results

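The genes of the ATF4 arm of the integrated stress response were examined in primary rat oligodendrocyte precursor cells exposed to alpha-synuclein fibrils. They were the 10 rows of the deposited expression table whose symbol was Atf4, Atf5, Atf3, Ddit3, Trib3, Asns, Psat1, Phgdh, Chac1 or Slc7a11, out of 32662 genes. Each symbol had 1 row. The cells came from the cerebral cortex of Sprague-Dawley rats aged 1 to 2 days. Mixed glia were grown with 20% serum, and the precursors, collected as non-adherent cells, were then cultured for 4 to 5 days with PDGF and FGF (10 ng/ml each) and 2% B27 supplement. The 3 libraries labelled Control and the 3 libraries from cells kept for 72 hours with fibrils assembled beforehand from human alpha-synuclein shared this culture and differed by the fibrils. The labels name no vehicle or monomer for the controls and do not say which animals or cultures each library came from. The p-values therefore cover only the spread between these libraries, which may be technical.

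In the integrated stress response, kinases that sense unfolded protein, amino acid shortage, viral RNA or haem deficiency phosphorylate the translation factor eIF2alpha. General protein synthesis then falls while the mRNA of the transcription factor ATF4 is translated more. ATF4 switches on genes for amino acid synthesis, amino acid import and transfer RNA charging, together with the stress factors CHOP (Ddit3), ATF3 and ATF5 and the feedback inhibitor TRIB3. In myelinating cells this response is known from disorders of the eIF2B complex and from models of demyelination. Much of the control of ATF4 acts on its translation, which RNA levels do not show.

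ATF4 binds DNA with C/EBP partners at composite elements with the core TGATGNAA. This core was searched on both strands of RefSeq promoter windows (GRCr8, 250 bases before to 50 after the start). Of the 10 genes, 9 had a window (all but Atf3), and 2 of these 9 held the core, against 3.98% of all 33469 windows. The stretches are shown for every window of these genes that held the core, those of Chac1 and Trib3. Capitals mark the core, which lies on the strand opposite to the gene, and each stretch is written 5′ to 3′ on the gene's strand.
Chac1 (chr3:126795938-126795997, plus strand): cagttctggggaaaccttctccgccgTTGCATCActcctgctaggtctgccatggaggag
Trib3 (chr3:161275534-161275580, minus strand): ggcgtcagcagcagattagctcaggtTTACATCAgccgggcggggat
In Chac1 the core read TGATGCAA, 167 to 160 bases upstream of the start, and in Trib3 it read TGATGTAA, 21 to 14 bases upstream. A match is a description of the letters and not of binding, and windows without a match say nothing about sites elsewhere.

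The values are FPKM, that is, fragments scaled to gene length and to the mapped fragments of each library. Replicate 1 of both groups stood apart from the other libraries: with control replicate 2 as the unit, the worth of a single fragment was 4.05 in control replicate 1, 6.98 in fibril replicate 1 and 0.816 to 1.96 in the rest. Mitochondrial genes held 80.3% and 75.6% of the FPKM in those libraries and 12% to 40.1% in the others, with the least in fibril replicate 3. The labelled lineage was in view, since 7 precursor markers summed to 1464 to 2392 FPKM in control libraries and 1180 to 1382 FPKM in fibril libraries. Pdgfra and Cspg4 were a small part of these sums. Pdgfra had 47.5 to 304 FPKM in controls and 43.4 to 95.3 FPKM after fibrils, and Cspg4 4.59 to 98.8 and 3.22 to 25.3 FPKM. Of the 7 precursor markers, 6 were negative (53% of all tested genes were), with a median log2 difference of -0.65 and 0 called. Fibroblast, mural and endothelial markers summed to at most 0.877 FPKM in any library. Myeloid markers (11 matched, 2 of them below 1 FPKM in every library) summed to 1.5 to 61.1 FPKM in control libraries and 13.7 to 97.2 FPKM in fibril libraries. Of 8 tested myeloid markers 6 were positive (47% of all tested genes were), with a median log2 difference of 1.05 and 0 called. Every fibril library lay above every control for 1 of them, Cd14 (4.24% of all tested genes). Only the differentiating oligodendrocyte list had a median farther from 0. Differentiating oligodendrocyte markers (8) summed to 252 to 687 FPKM in controls and 1127 to 2735 FPKM after fibrils. All 6 tested were positive (47% of all tested genes were), with a median log2 difference of 2.89. Mag and Enpp6 were called higher with the replicate number as a block (limma adjusted p = 0.0267 and 0.0435), as were 0.111% of all tested genes. All 7 neuron markers were negative (53% of all tested genes were), with a median of -0.62 and 0 called. Of 9 tested astrocyte markers 7 were negative, with a median of -0.91 and 0 called. Every fibril library lay below every control for Slc1a3, Gja1 and Slc4a4 (5.3% of all tested genes), and above for Gfap (4.24% of all tested genes). The part of these cell types in the results below was not tested.

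Of the 10 genes, 7 reached 1 FPKM in at least 3 libraries and were tested; Atf3, Trib3 and Slc7a11 did not. The clearest difference was in Atf5, with 2.48 times the control mean in the fibril libraries, followed by Ddit3 with 1.70 times. Atf4, Asns, Chac1 and Psat1 had 1.42, 1.38, 1.43 and 1.17 times the control mean, and Phgdh had 0.781 times. No gene passed: by limma with Benjamini-Hochberg adjustment over 10766 genes, the adjusted p of the 7 ran from 0.96 to 0.966, and 0% of all tested genes were called. At an unadjusted p under 0.05 there was 1 of the 7 (Atf5), against 4.02% of all tested genes. In bulk RNA, fewer cells of a type and less RNA per cell cannot be told apart.

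**Figure D1:**
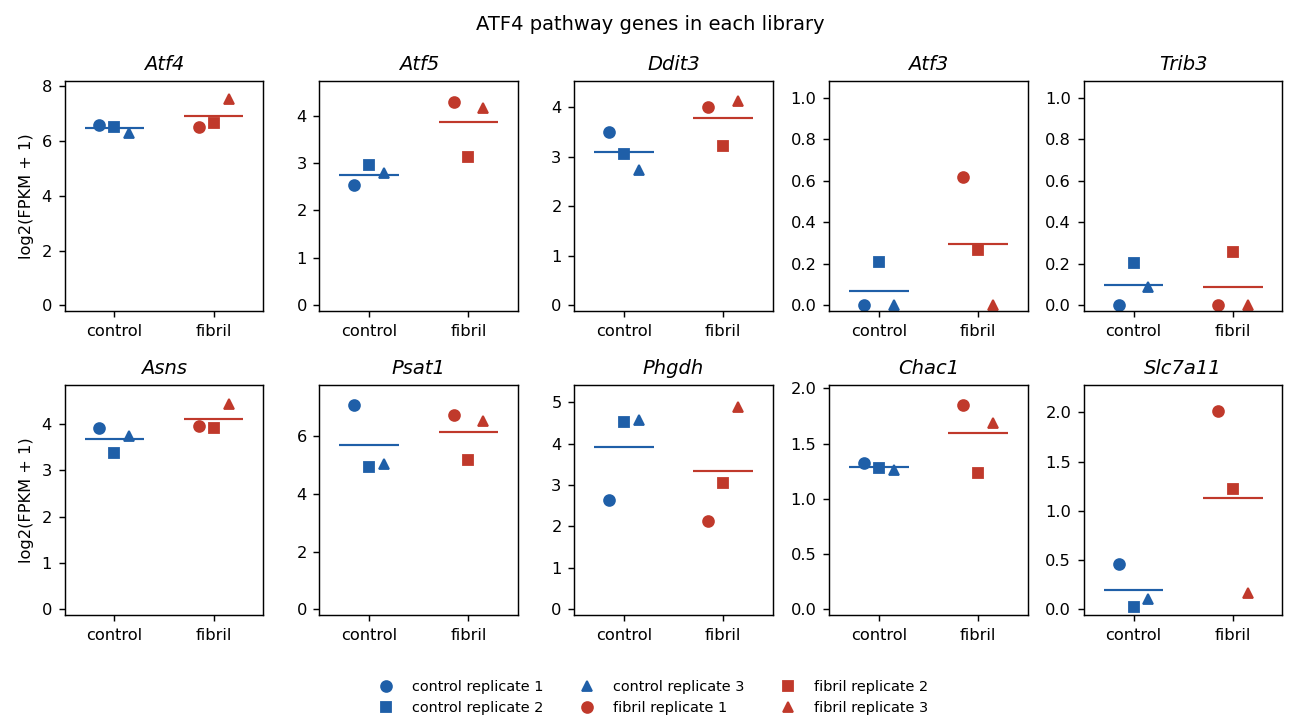
log2(FPKM + 1) of the 10 genes in each library, controls in blue and fibril libraries in red, with a marker shape for each replicate number and a line at the group mean; panels have their own vertical scales. For Atf5 all 3 fibril libraries (7.77 to 18.6 FPKM) lie above all 3 controls (4.76 to 6.73 FPKM), while Atf3 and Trib3 stay below 1 FPKM in every library.

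Atf4, the central factor (chromosome 7, 121480722 to 121482772 in the deposited table, whose build is not given in the sources used here), was the most abundant of the 10. It had 95.9, 91.0 and 77.5 FPKM in control replicates 1, 2 and 3, and 91.8, 100.004 and 184 FPKM in the fibril libraries. Fibril replicate 3 was far above the rest, and the other 5 libraries overlapped. The control mean of 88.1 ± 9.55 FPKM (SD, n = 3) was above that of 93.6% of tested genes. The log2 difference was 0.44 (SE 0.43), and 0.13 without fibril replicate 3.

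Atf5 (chromosome 1, 100808240 to 100810522), a close relative of ATF4 that is itself translated under eIF2alpha phosphorylation, had 4.76, 6.73 and 5.88 FPKM in control libraries and 18.6, 7.77 and 16.8 FPKM in fibril libraries. The groups did not overlap, but fibril replicate 2 was only slightly above the highest control. Among all tested genes, 4.24% had all fibril libraries above all controls, and of the 7 genes 2 did (Atf5 and Asns). The log2 difference of Atf5 was 1.11 (SE 0.43, 95% interval 0.12 to 2.09; limma unadjusted p = 0.0313, adjusted p = 0.96). An exact two-sided permutation test gave p = 0.1, the smallest that 3 libraries against 3 allow. Within replicates 1, 2 and 3 the differences were 1.76, 0.18 and 1.37. Relative to control replicate 2, the fragments behind the value numbered 0.175 in control replicate 1 and 0.396 in fibril replicate 1, although the fibril library was the shallower of the pair.

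Ddit3 (chromosome 7, 70580197 to 70602310), which encodes CHOP, a factor linked to cell death under prolonged stress, had 10.4, 7.36 and 5.69 FPKM in control libraries and 15.2, 8.26 and 16.4 FPKM in fibril libraries. Each fibril library was above the control of the same number, yet fibril replicate 2 was below control replicate 1. Among the 7 tested genes, higher values in 3 of 3 replicate numbers were seen for Atf5, Ddit3 and Asns, and they were seen for 16.9% of all tested genes. Slc7a11, which was not tested, was also higher in each replicate number. The log2 difference of Ddit3 was 0.68 (SE 0.42; limma adjusted p = 0.96). The deposited table gives Ddit3 the same interval as Mars, the methionyl-tRNA synthetase gene, so the division of fragments between these neighbours is uncertain. Mars had another pattern, with 12.3, 17.6 and 25.1 FPKM in control libraries and 7.47, 18.5 and 40.5 FPKM in fibril libraries.

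Atf3 and Trib3 were near the limit of detection. Atf3 (chromosome 13, 109817727 to 109849632), a stress-induced repressor of transcription, had 0, 0.154 and 0 FPKM in control libraries and 0.535, 0.201 and 0 FPKM in fibril libraries. Divided by the worth of 1 fragment, the 3 values above 0 stood at 2.02, 1 and 2.02 in control replicate 2, fibril replicate 1 and fibril replicate 2. The highest FPKM of Atf3, in fibril replicate 1, therefore rested on the fewest fragments of the 3. Trib3 (chromosome 3, 147813472 to 147819571), a pseudokinase that restrains ATF4 and CHOP, had 0, 0.150 and 0.0614 FPKM in control libraries and 0, 0.196 and 0 FPKM in fibril libraries. Its values above 0 stood at 2, 1 and 2 in the same units, in control replicates 2 and 3 and fibril replicate 2. An exact 0 can be a failed estimate in this kind of file, so no fold is given for either gene.

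Among the targets in amino acid metabolism, Asns (chromosome 4, 33743363 to 33761163), the enzyme that makes asparagine, had 14.1, 9.45 and 12.4 FPKM in control libraries and 14.6, 14.2 and 20.6 FPKM in fibril libraries. The lowest fibril library lay just above the highest control. This separation ended when libraries were rescaled to equal totals without mitochondrial genes, where control replicate 3 (16.7) exceeded all 3 fibril libraries (11.9, 16.2 and 16.0 in rescaled FPKM). With that scaling Ddit3 separated instead (7.66 to 9.09 against 9.38 to 12.8) and Atf5 still did, against 2.5% of all tested genes. The log2 difference of Asns as deposited was 0.43 (SE 0.37; limma adjusted p = 0.96).

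Phgdh and Psat1 encode the first and second enzymes of serine synthesis, and replicate 1 stood apart in opposite directions for them. Psat1 (chromosome 1, 233124091 to 233145941) had 136, 29.5 and 32.3 FPKM in control libraries and 106, 35.5 and 90.9 FPKM in fibril libraries. Phgdh (chromosome 2, 200484245 to 200513564) had 5.21, 22.1 and 22.5 FPKM in control libraries and 3.37, 7.20 and 28.3 FPKM in fibril libraries. In replicate 1, Psat1 was 4.41 times (control) and 1.67 times (fibril) the mean of replicates 2 and 3 of its group, whereas Phgdh was 0.233 and 0.19 times that mean. Their spread within groups was larger than the difference between them: the log2 difference was 0.46 (SE 0.68) for Psat1 and -0.56 (SE 0.77) for Phgdh, with 95% intervals of -1.08 to 1.99 and -2.32 to 1.2. Phgdh turned to 0.05 without fibril replicate 1 and reached -1.33 without fibril replicate 3, while Psat1 ran from 0.07 without control replicate 2 to 1.16 without control replicate 1. The fragments behind Phgdh in fibril replicate 1 were 0.0219 times those in control replicate 2, the lowest such ratio among the 7 tested genes. RefSeq (GRCr8) lists 6 pseudogenes named after Phgdh and 1 named after Psat1, so fragments could be shared with near-identical copies. Phgdh is known to be strong in astrocytes, whose 10 markers summed to 202, 184 and 191 FPKM in control replicates 1 to 3 and 119, 106 and 262 FPKM in the fibril replicates. Those markers went opposite ways in fibril replicate 3, where Phgdh was highest: Aldoc (181 FPKM) and Gfap (24.8 FPKM) were above all other libraries, while Slc1a2 (0.361), Slc1a3 (23.2) and Slc4a4 (0.154) were below all controls. Their part in the Phgdh values was not tested.

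**Figure D2:**
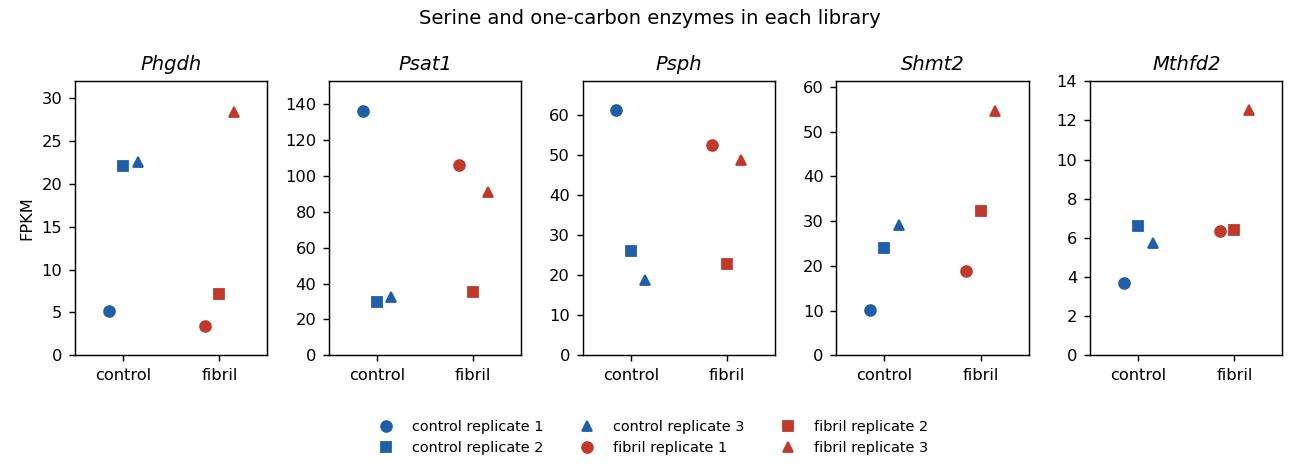
FPKM of Phgdh, Psat1, Psph, Shmt2 and Mthfd2 in each library, controls in blue and fibril libraries in red, marker shape by replicate number, each panel with its own linear scale from 0. In replicate 1 (circles) Psat1 and Psph are high and Phgdh is low within the controls, and Shmt2 and Mthfd2 are highest in fibril replicate 3 (54.5 and 12.5 FPKM).

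Chac1 (chromosome 3, 111160204 to 111163425) encodes an enzyme that breaks down glutathione and is widely used as a marker of ATF4 activity. It had 1.51, 1.42 and 1.39 FPKM in control libraries and 2.61, 1.36 and 2.23 FPKM in fibril libraries. The controls were tightly grouped, and fibril replicate 2 lay below all of them. In replicate 1 the control and the fibril library had the same fragment number relative to control replicate 2 (0.263), and their FPKM differed by the worth of a fragment. The log2 difference was 0.31 (SE 0.36; limma adjusted p = 0.961).

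Slc7a11 (chromosome 2, 139453773 to 139528162) encodes xCT, the cystine importer that supplies glutathione synthesis. It had 0.378, 0.0153 and 0.0749 FPKM in control libraries and 3.03, 1.34 and 0.12 FPKM in fibril libraries. Fibril replicates 1 and 2 were above all controls, and fibril replicate 3 was below control replicate 1. In depth-adjusted multiples of its lowest value, control replicates 1, 2 and 3 stood at 6.11, 1 and 6 and the fibril replicates at 28.4, 67.0 and 4.00, so the higher values did not rest on the shallow libraries alone. In a fit without the filter on low values the log2 difference was 0.94 (SE 0.45; limma unadjusted p = 0.0763, adjusted p = 0.912). With the replicate block as well, a pairing chosen after the data were seen, the limma unadjusted p was 0.0349 (adjusted p = 0.639). In that fit 3.83% of genes were higher at an unadjusted p under 0.05, and 0 were called. Myeloid marker sums were 8.36, 61.1 and 1.5 FPKM in control replicates 1 to 3 and 13.7, 97.2 and 51.3 FPKM in fibril replicates 1 to 3. Their part in the Slc7a11 values was not tested. Slc3a2, the heavy chain that pairs with xCT, had 45.7, 55.0 and 64.0 FPKM in control libraries and 46.9, 31.6 and 76.0 FPKM in fibril libraries, with overlapping groups.

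In control libraries the order of levels was Atf4, Psat1, Phgdh, Asns, Ddit3, Atf5, Chac1, Slc7a11, Trib3 and Atf3, with group means from 88.1 FPKM down to 0.0515 FPKM. Psat1 overlapped Atf4 through its replicate 1, while all Psat1 values lay above those of Phgdh. Phgdh overlapped Asns, Asns overlapped Ddit3, and Ddit3 overlapped Atf5. Atf5 lay above Chac1, and Chac1 above Slc7a11, in every control library, and Slc7a11, Trib3 and Atf3 overlapped. The genes most like Atf4 over the 6 libraries, by root mean square distance between centred log2(FPKM + 1) profiles, were Trmt10b (0.07), Psenen (0.08) and Atp1b3 (0.08), all highest in fibril replicate 3. Among the 7 tested genes Asns was the nearest to Atf4 (0.23, with 2.52% of tested genes nearer) and Phgdh the farthest (1.00, with 83.1% nearer).

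Described as a list, 6 of the 7 tested genes had positive log2 differences, as did 47% of all tested genes, and their median was 0.44 against -0.04 over all tested genes. The differences were widest in replicate 3: the medians within replicates 1, 2 and 3 were 0.05, 0.15 and 1.24, and without fibril replicate 3 the median over the libraries was 0.26. Scaled without mitochondrial genes, the median of all tested genes moved to -0.30, and that of the 7 genes was 0.14, or 0.44 relative to all genes. That scaling multiplies each library by a single factor, so the differences of nearly all genes shift by a similar amount. Values relative to all genes, here and below, therefore had to stay near the unscaled ones and are no separate support. Under a model blocked on replicate number, 12 genes of the table were called higher by limma (0.111% of those tested) and 0 lower, none of them among the 7, whose smallest adjusted p was 0.479, for Atf5.

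**Figure D3:**
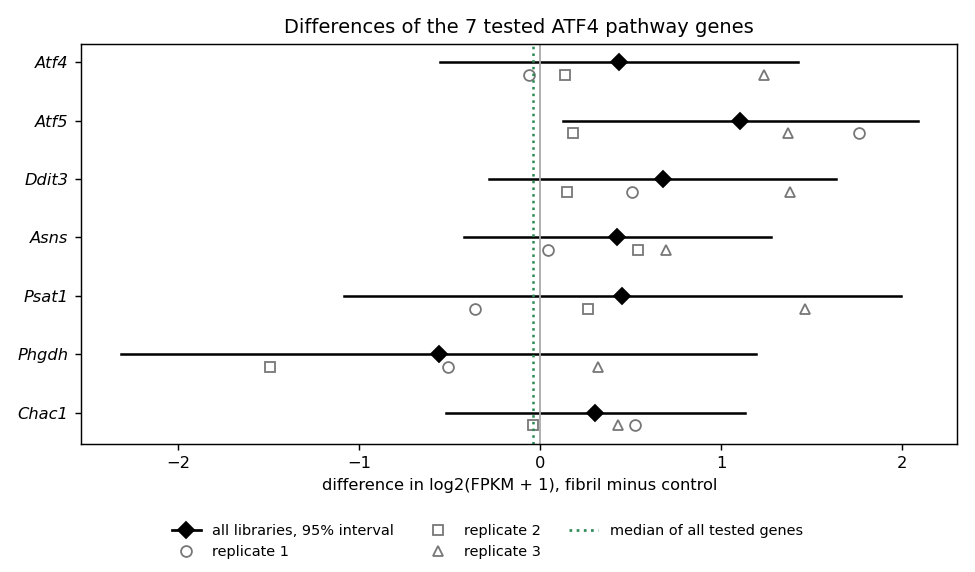
Difference in log2(FPKM + 1), fibril minus control, for the 7 tested genes: diamonds with bars are the limma estimates over all libraries with 95% intervals, open grey markers the differences within each replicate number, and the dotted line the median of all tested genes (-0.04). Only the interval of Atf5 lies wholly above 0 (0.12 to 2.09, not adjusted for the number of genes), and for Atf4 the replicate 3 difference (1.24) stands apart from those of replicates 1 and 2.

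The wider pathway was described with lists of 64 other genes acting upstream or downstream of ATF4, of which 53 were tested. By limma 0 passed in either direction, 4 had an unadjusted p under 0.05 (4.02% of all tested genes did), and 40 had positive differences (47% of all tested genes did), with a median of 0.25. The median was 0.06 without fibril replicate 3 (29 positive, 24 negative). Scaled without mitochondrial genes it was -0.05 (23 positive, 30 negative), or 0.25 relative to all genes. Upstream, of 12 eIF2alpha kinase, phosphatase and eIF2B genes, 8 were positive (47% of all tested genes were), with a median of 0.19, and 0 passed. That median was 0.02 without fibril replicate 3, and -0.06 (0.24 relative to all genes) when scaled without mitochondrial genes. Eif2b4 and Eif2b1, encoding eIF2B subunits, had the largest log2 differences of the list, 0.58 (SE 0.50) and 0.57 (SE 0.52), and both were highest in fibril replicate 3 (27.7 and 66 FPKM). Eif2ak3, encoding PERK, the sensor in the endoplasmic reticulum, had 3.91, 5.68 and 7.75 FPKM in control libraries and 5.64, 4.63 and 4.12 FPKM in fibril libraries. Eif2ak1, the haem-sensing kinase, had 21.1, 22.9 and 27.7 FPKM against 21.2, 17.7 and 19.0 FPKM, and Eif2b5, encoding a subunit of the exchange factor eIF2B, had 17.1, 13.2 and 15.3 FPKM against 22.5, 17.1 and 22.2 FPKM. The groups overlapped for all 12.

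Transfer RNA charging genes had small positive differences. Of 15 aminoacyl-tRNA synthetase genes, 14 were positive (47% of all tested genes were) with a median of 0.25, and 0 passed. Their medians within replicates 1, 2 and 3 were 0.02, 0.20 and 0.67, and without fibril replicate 3 the median was 0.05. Scaled without mitochondrial genes it was -0.05, or 0.25 relative to all genes. Vars, the valine enzyme, had the largest difference, with 12.7, 18.1 and 27.3 FPKM in control libraries and 23.1, 22.9 and 85.5 FPKM in fibril libraries. The deposited table gives Vars an interval shared with several neighbours, so its values are uncertain. Wars, the tryptophan enzyme, was the 1 of 15 whose groups did not overlap, near the 4.24% of all tested genes. It had 23.6, 25.4 and 28.1 FPKM against 29.6, 28.3 and 35.8 FPKM, and its log2 difference of 0.27 turned to -0.03 when scaled without mitochondrial genes.

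Enzymes of serine, glycine and one-carbon metabolism other than Phgdh and Psat1 had positive differences in 7 of 8 tested genes (47% of all tested genes were positive), with a median of 0.42, and 0 passed. The median was 0.15 without fibril replicate 3, and 0.14 (0.44 relative to all genes) when scaled without mitochondrial genes. Shmt2, the mitochondrial enzyme that converts serine to glycine, had 10.1, 24.1 and 29.2 FPKM in control libraries and 18.9, 32.3 and 54.5 FPKM in fibril libraries. It was higher in each replicate number, as were 16.9% of all tested genes. Psph, the last enzyme of serine synthesis, had 61.3, 26 and 18.8 FPKM against 52.6, 22.9 and 48.8 FPKM, with the high replicate 1 also seen for Psat1. Gpt2, a mitochondrial alanine aminotransferase and a known ATF4 target, differed in the other direction, with 21.5, 40.1 and 47.3 FPKM in control libraries and 17.1, 20.6 and 11.9 FPKM in fibril libraries. All 3 fibril libraries lay below all 3 controls, as in 5.3% of tested genes. Its log2 difference was -1.05 (SE 0.44; limma unadjusted p = 0.0399, adjusted p = 0.96).

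Amino acid transporters were the list with mostly negative differences: 6 of 7 tested genes, against 53% of all tested genes, with a median of -0.32, and 0 passed. The median was -0.86 without fibril replicate 3, and -0.62 (-0.32 relative to all genes) when scaled without mitochondrial genes. Slc38a1, a glutamine transporter, had 9.91, 14.4 and 25.0 FPKM in control libraries and 4.27, 11.5 and 2.71 FPKM in fibril libraries. Its log2 difference was -1.39 (SE 0.55; limma unadjusted p = 0.0336, adjusted p = 0.96), and fibril replicate 2 overlapped the controls. Slc6a9, a glycine transporter, had 1.64, 5.13 and 5.73 FPKM against 0.31, 2.19 and 3.47 FPKM, with overlapping groups. Slc7a1, the cationic amino acid importer, was the positive one, with 7.92, 2.87 and 8.08 FPKM against 6.88, 4.82 and 6.24 FPKM.

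The stress effectors held the largest difference of the wider pathway. Of 11 tested, 10 were positive (47% of all tested genes were) with a median of 0.41, and 0 passed. The median was 0.25 without fibril replicate 3, and 0.1 (0.4 relative to all genes) when scaled without mitochondrial genes. Gadd45a, a growth arrest gene that ATF4 and p53 can both induce, had 21.9, 6.41 and 3.83 FPKM in control libraries and 42.0, 15.3 and 37.7 FPKM in fibril libraries. It was higher in each replicate number (16.9% of all tested genes were), although fibril replicate 2 lay below control replicate 1. The log2 difference was 1.68 (SE 0.64; limma unadjusted p = 0.0279, adjusted p = 0.96, and 0.349 with the replicate block). Gadd45b, its relative, had 0.462, 1.17 and 0.764 FPKM against 3.19, 1.68 and 2.75 FPKM, with groups that did not overlap, as for 4.24% of all tested genes in this direction. Cebpb, a binding partner of ATF4, had 0.428, 0.647 and 1.32 FPKM against 0.739, 2.11 and 3.59 FPKM, also higher in each replicate number.

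A pair of neighbouring stress pathways was described beside these genes. Endoplasmic reticulum chaperone genes, which follow the ATF6 and XBP1 arms of the unfolded protein response, were positive in 12 of 16 (47% of all tested genes were). Their median of 0.30 was -0.04 without fibril replicate 3 and -0.01 (0.30 relative to all genes) when scaled without mitochondrial genes. Targets of NRF2, the antioxidant factor that also induces Slc7a11, were positive in 3 of 6 (47% of all tested genes were). Their median of 0.06 turned to -0.21 (0.09 relative to all genes) with that scaling. Nqo1, a quinone reductase, had 0.375, 1.79 and 2.00 FPKM in control libraries and 5.18, 2.57 and 3.87 FPKM in fibril libraries. All its fibril libraries lay above all controls, as for 4.24% of all tested genes. Gclm, a subunit of the glutathione-making ligase, lay lower in all 3 fibril libraries, as for 5.3% of all tested genes. It had 8.40, 12.4 and 10.2 FPKM against 7.60, 6.29 and 6.90 FPKM. By limma 0 genes of either list passed, and 1 (Nqo1) had an unadjusted p under 0.05 (4.02% of all tested genes did). The differences between these lists and the 10 genes were not tested.

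**Figure D4:**
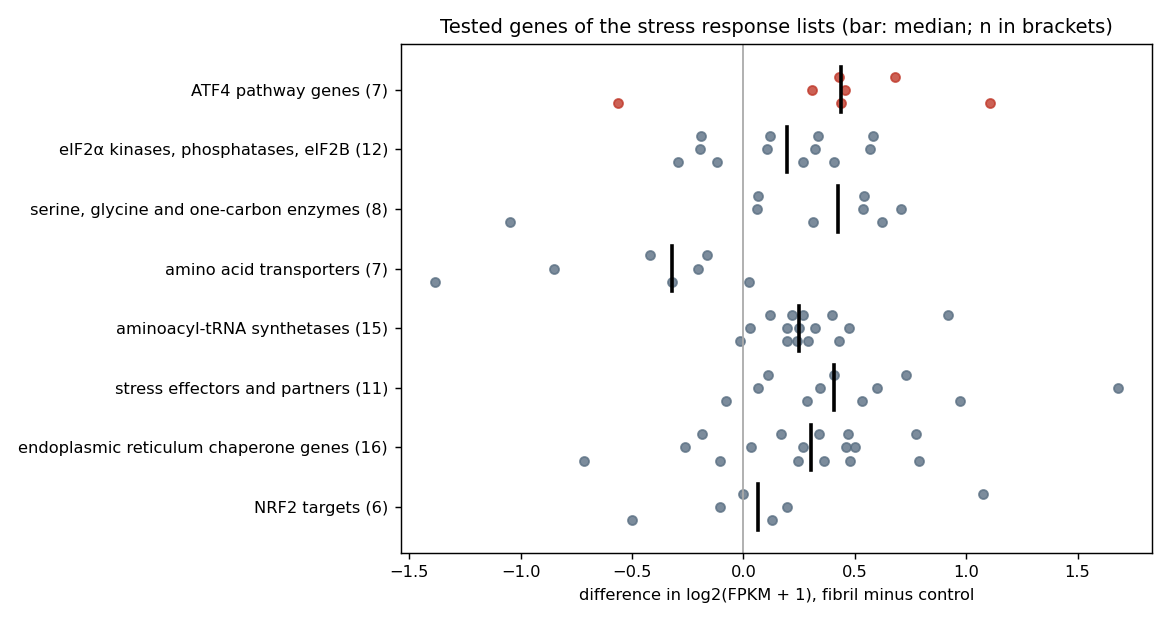
Difference in log2(FPKM + 1), fibril minus control, of each tested gene (points) in the ATF4 gene list (red) and 7 lists of related genes (grey), with a bar at each list's median and the number of tested genes in brackets. Medians run from -0.32 for amino acid transporters to 0.44 for the ATF4 genes, and the point farthest to the right is Gadd45a (1.68).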

How the data were processed

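The deposited table gives FPKM per gene, 1 column per library, made by the authors, per the file headers. Libraries were strand-specific (Agilent SureSelect), per the labels' protocols. The submitters' processing notes name Trimmomatic and FastQC; for the aligner, the quantifier and the build, the sources used here give nothing. FPKM are not counts, so no count model was run and the fragment number is unknown. The relative worth of 1 fragment was taken from low values (under 0.1 FPKM in control replicate 2 and under 1 FPKM in the other library) as the most frequent ratio within 0.03 on the log2 scale.

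Values were tested as log2(FPKM + 1), which understates changes of low genes, in 10766 genes that reached 1 FPKM in at least 3 libraries, with limma 3.58.1 in R 4.3.3 (mean-variance trend, two-sided, Benjamini-Hochberg, threshold 0.05). The fits were tested on simulated data. Deviations from group means of same-numbered libraries correlated at 0.747, 0.364 and 0.216 for replicates 1, 2 and 3 across genes, so results of a model blocked on replicate number are given where they change a count. The labels state no pairing, and replicates 2 and 3 correlated more across numbers (0.5 for control 3 with fibril 2, 0.433 for control 2 with fibril 3) than within them.

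The genes and lists were chosen with earlier results of these data known. Genes named from the lists were the up to 3 with the smallest p in each direction, from which the text gives a part. Psph, Slc3a2, Mars, Wars, Gdf15 and Fgf21 were named after their values were seen. Aldh18a1 (several rows), Ero1l and Bbc3 were not matched. Promoter sequences are from RefSeq (GRCr8); overlapping windows of opposite strands were checked to be reverse complements.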

Additional observations from a re-analysis of the deposited data

How the results depend on the processing

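No alternative called any of the ATF4 genes. Over the whole table, 0 genes were called in fits of all 6 libraries without a block or a term for replicate 1. The replicate block gave 12 and the term for replicate 1 gave 19 (18 higher, 1 lower). Leaving out 1 library without a block gave 0 to 3, the 3 without fibril replicate 3. With the replicate block, leaving out fibril replicate 3 gave 45 (37 higher, 8 lower), scaling without mitochondrial genes gave 1 and no filter gave 0. The pairings of the block with that scaling and with no filter were chosen after the data were seen, while the pairing without fibril replicate 3 was planned. The block changed no other call. The wider list's median became -0.0546 when scaled without mitochondrial genes, with or without the block (23 positive, 30 negative). With that scaling the median of all tested genes was -0.302, and their share of positive differences was not counted. Phgdh changed sign without fibril replicate 1 (0.0485; -1.33 without fibril replicate 3) and Psat1 with the replicate block without fibril replicate 3 (-0.0492); the cause was not tested. Atf4, Atf5, Ddit3, Asns and Chac1 stayed positive under every alternative run, Atf4 from 0.036 to 0.686 and Atf5 from 0.776 to 1.47. Chac1 has no value under the mean filter of 5 FPKM. The shallow replicate 1 libraries limit low genes most.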

Other observations

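Gdf15 and Fgf21, which encode circulating hormones released under mitochondrial and amino acid stress, were below the filter on low values. Gdf15 was listed at 0 in all 3 control libraries and had 0, 1.38 and 1.39 FPKM in fibril replicates 1, 2 and 3. Fgf21 was also at 0 in each control, against 0, 0.369 and 0.555 FPKM in fibril replicates 1, 2 and 3. Both were listed at 0 in replicate 1, where a fragment is worth the most. Neither was tested, and both were picked after their values were seen. Other listed genes below the filter varied. Cth had 2.59, 0.323 and 0.0659 FPKM in control libraries and 0, 0 and 0.500 FPKM in fibril libraries. Tnfrsf10b had 0.156 FPKM in control replicate 2 and 0 elsewhere. Nupr1 was at 0 in every library, and Stc2 was above 0 only in fibril replicate 2. Ndrg1 was higher with fibrils in each replicate number. How many of all genes share the Gdf15 pattern was not counted.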
